A study of Mus musculus with 6 samples.

Results

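Ccr7+ dendritic cells of the mouse liver were described in single-cell RNA sequencing (scRNA-Seq) of liver non-parenchymal cells, the cells of the liver other than hepatocytes. They were chosen by measured transcripts: a cell was a member if it held at least 1 unique molecular identifier (UMI, a tag that counts 1 captured RNA molecule) of Ccr7, at least 3 of Fscn1, Ccl22 and Il4i1 together, at least 3 of H2-Ab1, at most 1 of Cd3d, Cd3e and Cd3g together and at most 1 of Cd79a. Of 27544 cells with under 5000 detected genes and under 5% mitochondrial UMIs, 138 met this rule (0.501%), out of 33168 deposited barcodes. Vehicle replicates 1, 2 and 3 held 43, 22 and 48 of these members, and ginkgetin replicates 1, 2 and 3 held 2, 8 and 15.

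All mice were male C57BL/6J animals that entered the study at 8 weeks of age, and all received a high-fat diet for 24 weeks as a model of nonalcoholic steatohepatitis (NASH). In the last 8 weeks, 1 group received vehicle (DMSO) and the other received ginkgetin, a plant biflavone, by the intragastric route at 10 mg/kg per day. Each group had 3 libraries (10x Genomics), and no library came from mice without the diet. Whether each library came from a separate animal is not given in the sources used here, so p-values measure the spread between libraries, which may be technical.

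A dendritic cell takes up antigen in a tissue, and on maturation it raises Ccr7, the receptor for the lymphatic chemokines Ccl19 and Ccl21, and leaves through lymph for the draining lymph node. Maturation also brings costimulatory molecules for T cells, T cell-attracting chemokines and NF-kB activity, together with genes that restrain T cells, and it lowers genes for antigen uptake. The conventional subset cDC1, with Xcr1 and Clec9a, presents cell-associated antigen to CD8 T cells, whereas cDC2, marked in mouse liver by Cd209a, presents mainly to CD4 T cells, and either can mature.

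The kept cells had median UMI counts of 2483 to 8412 per library, with lower medians in each ginkgetin library than in the vehicle library of the same replicate number. The libraries fell into 2 barcode sets, since replicate 3 of both groups differed from replicates 1 and 2 in barcode format and in its gene symbols. Only the 16150 symbols counted in both sets, of 19349 in the tables, were compared gene by gene. Summed marker lists used all their symbols, of which 6 of 9 for T cells and 6 of 7 for B cells were counted in both sets (Trac, Trbc1, Trbc2 and Ighm were not), so sums of these 2 lists are not compared between sets. The smallest UMI count of a deposited cell ranged from 625 to 2155 between libraries. At most 85 barcodes were shared by any pair of libraries, and 0 of them belonged to members in both. Doublets were not removed.

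The members held between 2822 and 35221 UMIs per cell, with a median of 9348, and a median of 2073.5 genes. In order of replicate number, their median depth was 7369, 7375 and 11866 UMIs with vehicle and 6235.5, 6343 and 18832 UMIs with ginkgetin. The genes of the rule were uneven within the selection. Ccr7 ranged from 1 to 98 UMIs per cell (median 8.5). Il4i1, an amino acid oxidase, was seen in 123 members, Ccl22, a chemokine for Ccr4+ T cells, in 105, and Fscn1, an actin-bundling protein of dendrites, in 76, which is 55.1%. The label "mature migratory" was therefore checked on genes outside the rule. Relb, an NF-kB subunit needed for dendritic cell maturation, was present in 130 members (94.2%) and Cd83, a maturation marker, in 129 (93.5%). The same genes were present in 11.0% and 2.9% of T cells of these libraries, taken as cells with 3 or more Cd3d, Cd3e and Cd3g UMIs and at most 1 of H2-Ab1. Cells closer to the members shared these markers: Cd83 was present in 60.9% of cDC1-like and 45.5% of cDC2-like cells (conventional dendritic cells without Ccr7), and Relb in 21.7% and 29.0%.

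Close to the limits of the rule, 7 members had exactly 3 UMIs of Fscn1, Ccl22 and Il4i1 and 11 cells had 2 and stayed outside. A further 20 members had exactly 1 UMI of Ccr7, while 122 cells met the rest of the rule with 0. The limit on Cd79a kept out 12 cells, that on H2-Ab1 26 and that on Cd3 transcripts 0, and the mitochondrial limit removed 4. The 122 cells at 0, of which 106 came from vehicle and 16 from ginkgetin libraries, were deeper than the members in each of the 3 vehicle libraries (medians of 9147, 8341 and 13865 UMIs), and in ginkgetin replicate 3 they were shallower (14329). Of the 122, 77 stayed below limits set for transcripts of another lineage (for C1qa, C1qb and C1qc, under 5 UMIs together), against 127 of the 138 members. In vehicle replicate 3 the macrophage list of the cells at 0 stood at 111 UMIs per 10000 against 17.1 in members. The part of this in the differences that follow was not tested. Socs2, an inhibitor of cytokine signaling, was seen in 15 of them (12.3%) against 92 members (66.7%). Cacnb3, a calcium channel subunit, was seen in 8 (6.56%) against 83 (60.1%), and Il12b, a subunit of interleukin-12, in 4 (3.28%) against 50 (36.2%). Other genes differed less: Cd83 was in 77.0% and 93.5%, Cxcl16 in 86.9% and 93.5%, Cd40 in 54.9% and 58.7%, Ccl17 in 18.03% and 18.1%, and Cd86 in 65.6% and 50.7%. Members with 1 Ccr7 UMI also differed from those with more: Socs2 was in 25% of those 20 cells and 73.7% of the 118 with more, and Cacnb3 in 10.0% and 68.6%. Their median depth of 11274 UMIs was above the 9157 of the others.

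The first question was how frequent these cells were under vehicle and ginkgetin. Members were 0.715%, 0.659% and 1.16% of kept cells in vehicle replicates 1, 2 and 3, with exact 95% binomial intervals of 0.518 to 0.961%, 0.414 to 0.997% and 0.857 to 1.54%. They were 0.0573%, 0.116% and 0.412% in ginkgetin replicates 1, 2 and 3, with intervals of 0.00693 to 0.207%, 0.0499 to 0.228% and 0.231 to 0.678%. The groups did not overlap, and the highest ginkgetin library was replicate 3, as was the highest vehicle library. The means were 0.845% ± 0.275 and 0.195% ± 0.190 (SD, n = 3 each), a 4.33-fold difference. A two-sided exact permutation test over libraries gave p = 0.10, the smallest p that 3 libraries against 3 allow. Within the first barcode set the vehicle mean was 7.95-fold the ginkgetin mean (2 libraries against 2), and within the second it was 2.82-fold (1 against 1). Intervals cover counting error only.

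**Figure D1:**
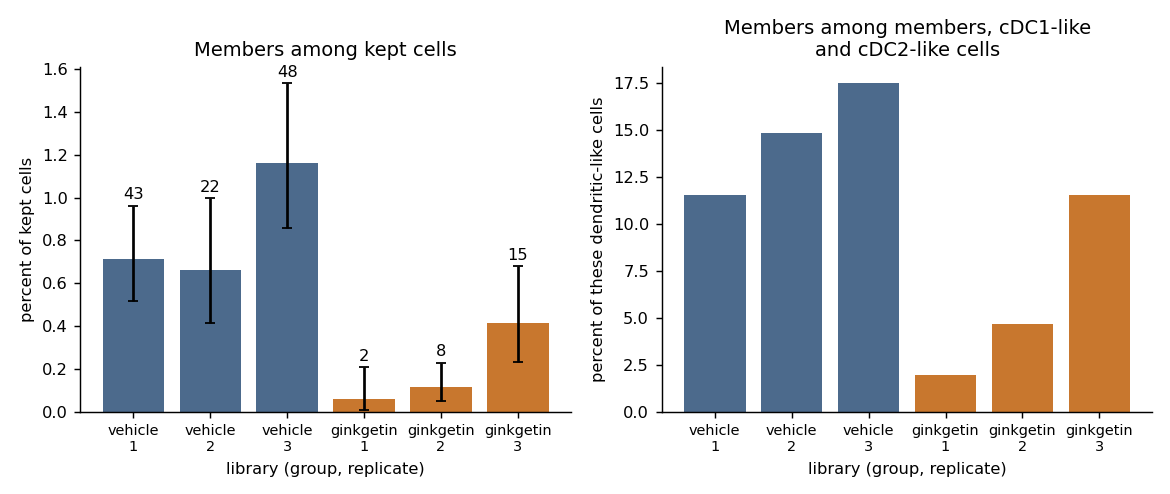
Members per library, as a percent of all kept cells (left, bars with exact 95% binomial intervals and the number of members above each) and as a percent of members plus cDC1-like and cDC2-like cells (right). On the left the 3 vehicle libraries, from 0.659% to 1.16%, lie above the 3 ginkgetin libraries, from 0.0573% to 0.412%. On the right ginkgetin replicate 3 is level with vehicle replicate 1.

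The share depended on what it was set against. Other dendritic cells were taken as cDC1-like cells (540; Xcr1 and Clec9a at least 2 UMIs together) and cDC2-like cells (521; Cd209a at least 2, with less Xcr1 and Clec9a), all without Ccr7. The cDC1-like cells were 2.43% ± 0.422 of kept cells with vehicle and 1.57% ± 0.330 with ginkgetin, and the cDC2-like cells 2.47% ± 0.647 and 1.24% ± 0.0807 (SD, n = 3 each; exact permutation p = 0.10 for both). Among these 3 kinds of cell together, members were 14.6% ± 3.0 with vehicle and 6.05% ± 4.94 with ginkgetin (SD, n = 3 each). This difference of -8.58 percentage points had an exact permutation p of 0.20, and vehicle replicate 1 (11.53%) and ginkgetin replicate 3 (11.54%) overlapped. A larger difference for members than for the other dendritic-like cells was thus not shown beyond the spread of the libraries.

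Depth differed between libraries, with overlap between the groups, and the share was therefore recounted at equal depth. When every kept cell of at least 2000 UMIs was thinned to that number, 6017, 3108 and 3977 cells remained with vehicle and 2653, 5386 and 3227 with ginkgetin. In these the rule found 14, 10 and 23 members in the vehicle libraries and 1, 4 and 9 in the ginkgetin libraries. The shares became 0.378% and 0.130% on average, and vehicle replicate 1 (0.233%) then lay under ginkgetin replicate 3 (0.279%; exact permutation p = 0.20). When only cells of at least 2155 UMIs were counted, the shares were 0.893% and 0.239% and the groups did not overlap (exact permutation p = 0.10).

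The members were next compared with the cDC1-like and cDC2-like cells of the same library, summed, in the 4 libraries with 10 or more members (vehicle replicates 1, 2 and 3 and ginkgetin replicate 3). Because the rule fixed this contrast, the values are a description and were not tested. Levels are counts scaled to a common total of UMIs over the summed cells (CPM), and ratios are on the log2 scale of CPM plus 1. Of 2722 genes with a mean of 50 CPM or more on either side, 205 (7.53%) were over 2-fold higher in members in all 4 libraries and 199 (7.31%) were over 2-fold lower in all 4.

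Genes that costimulate T cells differed among themselves. Of 6 described, 3 were over 2-fold higher in all 4 libraries, namely Cd40, Cd83 and Icosl, and 0 were lower, with a median log2 ratio over the list of 1.92 against -0.22 over all genes described. Cd40, the receptor for T cell help, was at 204, 99.7, 136 and 123 CPM in members of vehicle replicates 1, 2 and 3 and ginkgetin replicate 3, and at 29.1, 14.8, 30.7 and 23.1 CPM in the other dendritic-like cells. The lowest member value thus exceeded the highest value of the other cells. Cd86 did not follow: it was at 124, 68.2, 149 and 214 CPM in members and 116, 130, 145 and 106 CPM in the others, a median log2 ratio of 0.07. Cd80 had a median log2 ratio of 1.84, but its level stayed under the mean of 50 CPM on both sides.

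Of 9 genes described in a list of regulatory genes, which restrain T cells or cytokine signaling or mark regulatory mature dendritic cells, 5 were over 2-fold higher in all 4 libraries (Cd274, Cd200, Fas, Socs2 and Nudt17), and Havcr2, an inhibitory receptor, was lower in all 4. Cd274, which encodes PD-L1, was at 76.4, 57.7, 75.3 and 249 CPM in members and at 10.8, 5.44, 15.9 and 11.0 CPM in the others. Socs2 was at 334, 247, 123 and 211 CPM in members and at no more than 2.36 CPM in the others, a median log2 ratio of 7.63. Cd200, a ligand that restrains myeloid cells, and Fas, a death receptor, had median log2 ratios of 2.60 and 3.14. Aldh1a2, which makes retinoic acid, was at 59.4, 57.7, 18.02 and 56.2 CPM in members and at most 2.69 CPM in the others, and was seen in 25.4% of members.

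The secreted factors were divided. Ccl5, a chemokine for T cells and monocytes, was at 2800, 2355, 2257 and 706 CPM in members against at most 91.0 CPM in the others. Cxcl16, a chemokine for Cxcr6+ lymphocytes, was at 846, 887, 622 and 766 CPM against at most 197 CPM, and Il12b at 286, 278, 231 and 1085 CPM against at most 26 CPM. These were 3 of the 13 cytokine and chemokine genes described, and 0 of the 13 were lower in all 4 libraries. Ccl17, which shares the receptor Ccr4 with Ccl22, was split by library. It was at 631, 247 and 1763 CPM in members of vehicle replicates 1 and 2 and ginkgetin replicate 3, with log2 ratios of 5.01, 3.77 and 4.01, but at 22.9 CPM in vehicle replicate 3, where the other cells had 81.7 CPM (-1.79). Among the vehicle libraries detection did not follow this split, since Ccl17 was in 5 of 43, 2 of 22 and 6 of 48 members, whereas in ginkgetin replicate 3 it was in 9 of 15. Single cells carried the level, with up to 101 UMIs in 1 cell of vehicle replicate 1 and 45 in 1 cell of replicate 2, against at most 5 in replicate 3.

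Of the NF-kB genes, 7 of 14 described were over 2-fold higher in all 4 libraries (Nfkb2, Rel, Relb, Traf1, Birc2, Birc3 and Map3k14) and 0 were lower. Relb was at 540, 409, 521 and 558 CPM in members, with little spread between libraries, and at 38.8, 44.3, 31.3 and 27.2 CPM in the others. Map3k14, the kinase that starts the alternative NF-kB pathway, was at 139, 126, 152 and 334 CPM against at most 37.5 CPM. Traf1, an adaptor of TNF receptors, was at 716, 572, 714 and 917 CPM against at most 115 CPM.

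Genes of movement and cell shape followed, with 8 of 14 over 2-fold higher in all 4 libraries (Adam8, Marcks, Marcksl1, Samsn1, Myo1g, Anxa3, Lad1 and Tbc1d4). Ccr2 and Cx3cr1, chemokine receptors of cells that enter tissue from blood, were over 2-fold lower in all 4. Marcks, which links membrane to actin, was at 478, 656, 847 and 1549 CPM in members and at 177, 218, 333 and 464 CPM in the others. Ccr2 was at 84.9, 62.9, 49.1 and 0 CPM against 350, 323, 392 and 616 CPM. Ginkgetin replicate 3 was thus the highest of the 4 for Marcks and the only one of these 4 with Ccr2 at 0.

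Members and the other dendritic-like cells all had to hold at least 3 UMIs of the class II gene H2-Ab1, so their class II levels are those of cells chosen in this way. H2-Aa was at 10232, 8409, 6988 and 7590 CPM in members and 10040, 8621, 6675 and 7030 CPM in the others, and Cd74, the invariant chain, had a median log2 ratio of 0.08. The peptide loaders H2-DMa and H2-DMb1 were over 2-fold lower in all 4 libraries, as 2 of the 11 class II genes described. H2-DMb1 was at 178, 147, 208 and 73.8 CPM against 809, 798, 852 and 585 CPM. Of 11 class I genes, 1 was over 2-fold higher in all 4, Nlrc5, the transactivator of class I genes, and 0 were lower.

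Most uptake and cDC1 genes described were lower in members than in the other dendritic-like cells summed. Of 8 uptake and sensing genes described, 6 were over 2-fold lower in all 4 libraries (Tlr3, Clec9a, Clec10a, Cd209a, Fcgr2b and Cd68) and 0 were higher. Of 10 cDC1 markers, 7 were lower, and of 8 cDC2 markers 3 were lower while Ltb, a lymphotoxin subunit, was higher. Irf8, the factor that sets up cDC1, was at 223, 362, 241 and 769 CPM in members against 1010, 1203, 856 and 1714 CPM. By kind of cell, Irf8 was seen in 56.5% of members, 97.0% of cDC1-like and 42.6% of cDC2-like cells. Against cDC2-like cells alone, the summed cDC1 list was higher in members of vehicle replicates 2 and 3 and ginkgetin replicate 3. It was lower in members of vehicle replicate 1. Batf3 and Zbtb46, factors of conventional dendritic cells, had median log2 ratios of -0.02 and 0.03. Xcr1, Clec9a and Cd209a had also been used to choose the other cells, so their ratios, and their part in the counts of uptake, cDC1 and cDC2 genes, follow from that choice.

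**Figure D2:**
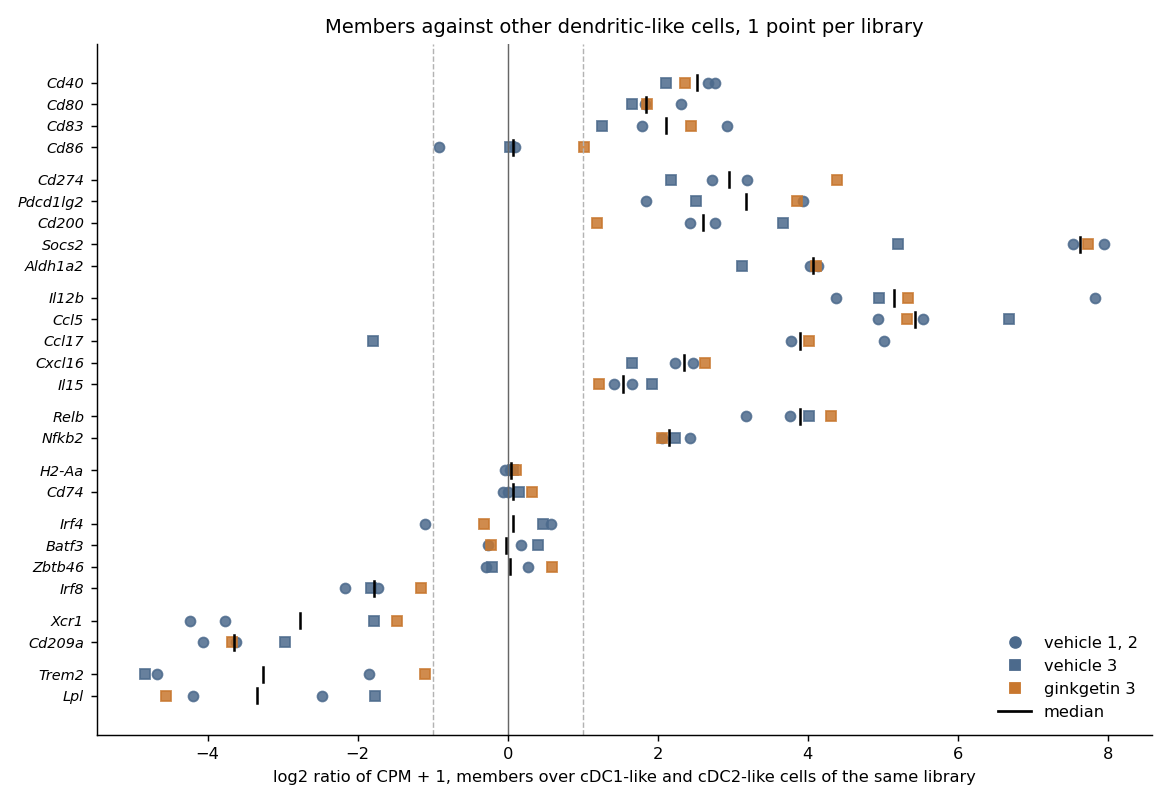
Log2 ratio of CPM plus 1 in members over cDC1-like and cDC2-like cells of the same library, with 1 point for each of 4 libraries and a black line at the median; dashed lines mark 2-fold. Cd40, Cd274, Socs2, Il12b, Ccl5 and Relb lie right of the 2-fold line in all 4 libraries, H2-Aa, Cd74 and Batf3 lie near 0, and Irf8, Xcr1 and Cd209a lie left of it, while Ccl17 is split by library.

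The 10 genes outside the rule with the highest median ratio, among those over 2-fold higher in all 4 libraries and with a mean of 100 CPM or more, were Cacnb3, Socs2, Lad1, Nudt17, Tnfrsf4, Mreg, Apol7c, Zmynd15, Ccl5 and H2-Eb2. Cacnb3 was at 243, 236, 242 and 390 CPM in members and at no more than 0.590 CPM in the others. Nudt17, a nudix hydrolase, was at 139, 189, 99.9 and 109 CPM against at most 0.777 CPM, and Lad1, an anchoring filament protein, at 153, 226, 77.0 and 123 CPM against at most 0.590 CPM. These 3 genes were near 0 in both kinds of comparison cell. Tnfrsf4, which encodes the costimulatory receptor OX40 of T cells, was at 170, 47.2, 206 and 73.8 CPM in members against at most 2.31 CPM.

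At the other end, by the same rule, stood Unc119, Siglech, Ly6d, Naaa, Rab7b, Cd209a, Ppfia4, Lpl, Ckb and Trem2. Siglech, a receptor of plasmacytoid dendritic cells, was at 0, 68.2, 1.64 and 0 CPM in members and at 116, 178, 50.4 and 319 CPM in the others. Siglech and Ly6d belong to the plasmacytoid marker list. Its sum was 16.4, 13.3, 5.78 and 21.9 UMIs per 10000 in cDC2-like cells and 2.77, 6.19, 2.98 and 2.56 in members. What part plasmacytoid cells among the others had in this was not tested. Naaa, a lysosomal amidase of cDC1, was at 11.3, 31.5, 44.2 and 126 CPM against 704, 550, 519 and 883 CPM. Trem2 and Lpl, genes of lipid-associated macrophages, were at most 36.8 and 141 CPM in members. Beside them, the macrophage marker list (10 genes with C1qa, Clec4f and Vsig4 among them) summed to 25.4 to 56.65 UMIs per 10000 in vehicle cDC1-like cells and 1.47 to 17.1 in vehicle members. Its part in the lower Trem2 and Lpl was not tested. With cells past the limits for transcripts of another lineage left out on both sides, 226 genes were higher and 203 lower in all 4 libraries.

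Single members differed in which subset's transcripts they held. At least 1 UMI of Xcr1 or Clec9a without Cd209a, Clec10a or Mgl2 was present in 29 members (21.0%), the reverse in 19 (13.8%), both in 3 and neither in 87 (63.0%). The median depth was 14616, 11029 and 8036 UMIs in the first, second and last of these. Il12b was seen in 20 of the 29 cells with a cDC1 transcript (69.0%, exact 95% interval 49.2 to 84.7%), in 0 of the 19 with a cDC2 transcript (0 to 17.6%) and in 29 of the 87 with neither (33.3%, 23.6 to 44.3%). Of the 20 cells, 4, 2 and 5 came from vehicle replicates 1, 2 and 3, and 0, 1 and 8 from ginkgetin replicates 1, 2 and 3. The intervals treat cells pooled over libraries as independent. The part of depth in these shares was not tested.

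The 19 cells with a cDC2 transcript held some genes that were higher in members less often than the other sets and some as often, which was not tested. Socs2 was seen in 2 of them (10.5%), in 20 of 29 cells with a cDC1 transcript and in 68 of 87 with neither (78.2%). Cacnb3 was seen in 2, 19 and 61 cells of the same sets. In contrast, Relb was seen in 17 of the 19 and Cd83 in all 19, Nfkb2 in 84.2% (75.9% with a cDC1 transcript and 58.6% with neither), Cd40 in 63.2% (72.4% and 52.9%) and Cd274 in 47.4% (41.4% and 46.0%). Of the genes of the rule, given as a description, Fscn1 was seen in 3, 11 and 61 cells of the same sets, and the median Ccr7 count was 2, 12 and 9. In replicate 3 of the vehicle group, which held 9 of the 19, Socs2 and Cacnb3 were seen in 0 of them. Sirpa, a surface protein of cDC2 and macrophages, was present in 13 of the 19, 3 of the 29 and 31 of the 87.

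**Figure D3:**
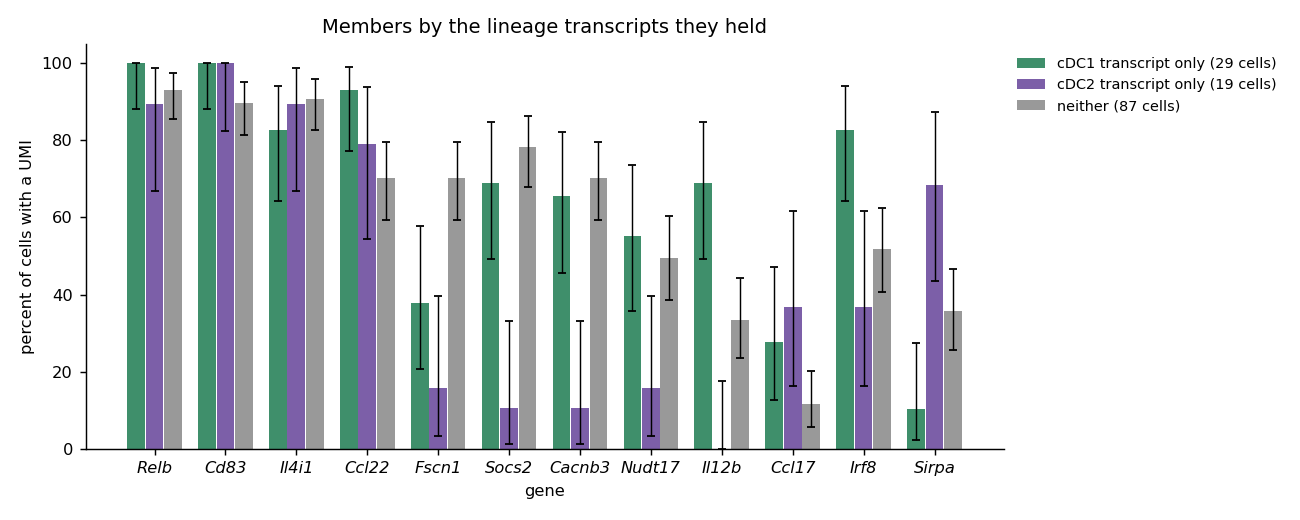
Percent of members with at least 1 UMI of each gene, for the 29 with only a cDC1 transcript, the 19 with only a cDC2 transcript and the 87 with neither, with exact 95% binomial intervals over cells pooled from 6 libraries. Relb, Cd83 and Il4i1 are high in all 3 sets. Socs2, Cacnb3 and Fscn1 are low in the cDC2 set, and Il12b runs from 69.0% in the cDC1 set to 0 of 19.

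By library, only cDC1 transcripts were in 11.6%, 13.6% and 20.8% of members of vehicle replicates 1, 2 and 3. The shares were 0%, 37.5% and 53.3% in ginkgetin replicates 1, 2 and 3, so the groups overlapped. Pooled over libraries, these were 18 of 113 vehicle members (15.9%) and 11 of 25 ginkgetin members (44.0%), of which 8 came from ginkgetin replicate 3. Only cDC2 transcripts were in 17 vehicle members (15.0%) and 2 ginkgetin members (8.0%), pooled in the same way. The summed cDC1 marker list was at 5.63, 7.24 and 9.19 UMIs per 10000 in vehicle members and 7.22, 12.9 and 19.1 in ginkgetin members, so the groups overlapped. Members of ginkgetin replicate 3 were also the deepest, and the part of depth in their cDC1 share was not tested.

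Co-detection also varied. Of 50 members with Il12b and 25 with Ccl17, 14 held both, and 8 of these 14 were among the 15 members of ginkgetin replicate 3. Cd274 was seen in 64 members and Pdcd1lg2, which encodes PD-L2, in 19, with 14 cells holding both. Il12b and Cd274 were together in 19 cells, and 43 cells held neither. Thinned to 2000 UMIs, Il12b was seen in 25.4% of members and 1.9% of cDC1-like cells, and Cd274 in 10.9% and 1.9%.

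Gene expression in members was then compared between the groups with counts summed per library. Only ginkgetin replicate 3 reached 10 members in its group, so the planned comparison set 3 vehicle libraries against 1, which was assumed to vary as the vehicle libraries do. edgeR's quasi-likelihood test called 0 of 4230 genes (0.0%) at an adjusted p under 0.05 and a fold over 2. The lowest adjusted p was 0.113, and 615 genes (14.5%) had an unadjusted p under 0.05. DESeq2 called 17 and limma-voom 0. The genes with the lowest p, all uncalled, were Ahnak, Tle3, Adam8, Oasl1 and Adam19 on the higher side and Cybb, Fcer1g, Wfdc17, Pltp and Ms4a6b on the lower side. With all 6 libraries, a choice made after seeing the data, edgeR called 0 of 2496 genes (0.0%), with 306 at an unadjusted p under 0.05, DESeq2 called 7 and limma-voom 0.

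With the barcode set as a term in the 6-library fit, edgeR called 24 genes (0.962%), 6 higher and 18 lower with ginkgetin, and this fit was also added after seeing the data. Without ginkgetin replicate 1, which held 2 members, the same fit called 0 of 3241 genes, with 426 at an unadjusted p under 0.05. The calls were thus not kept without that library, and the part of the smaller number of libraries in this was not tested. Separately, 206 of 2496 genes (8.25%) were higher in every ginkgetin library than in any vehicle library, and 268 (10.7%) were lower in every one. The 2 members of ginkgetin replicate 1 held 12471 UMIs in all, so that 1 UMI was worth 80.2 CPM there, and 0 UMIs allowed a level of up to 241 CPM (3 counts).

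Lyz2, Ms4a6c, Cebpb, Cotl1 and Ccl9 were not called by edgeR in the planned comparison or over 6 libraries without a block, and were named after their values were seen. Lyz2, the lysozyme of monocytes and macrophages, was at 735, 1102 and 590 CPM in vehicle members and at 160, 0 and 169 CPM in ginkgetin members, without overlap. A few cells carried the sums: 1 cell held 167 of 260 Lyz2 UMIs in vehicle replicate 1 and 1 held 103 of 210 in replicate 2. The median per cell was 1, 2 and 0 UMIs against 1, 0 and 1, and Lyz2 was seen in 47.9% of members of vehicle replicate 3 and 73.3% of ginkgetin replicate 3, so detection overlapped. Its log2 fold change was -2.95 ± 0.67 (SE) over all 6 libraries without a block, with an edgeR adjusted p of 0.168, and its adjusted p was 0.150 in the planned comparison and 0.0214 in the 6-library fit with the barcode set. Ms4a6c, a membrane protein of monocytes, was at 87.7, 152 and 218 CPM with vehicle and 0, 0 and 10.5 CPM with ginkgetin (adjusted p 0.00866 in that fit). Cebpb, a factor of myeloid differentiation, was at 82.0, 289 and 162 CPM against 0, 0 and 3.51 CPM (adjusted p 0.0169).

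The same direction was seen in Cotl1, an actin-binding protein, at 337, 383 and 378 CPM against 0, 102 and 80.8 CPM. Ccl9, a myeloid chemokine, was at 257, 367 and 144 CPM against 0, 33.9 and 35.1 CPM, and both had an edgeR adjusted p of 0.0214 in the fit with the barcode set. The listed values did not overlap, but 0 UMIs in ginkgetin replicate 1 allow up to 241 CPM there, above some vehicle values of Ccl9, Ms4a6c and Cebpb, so for these 3 genes the groups are not shown to be apart in that library. Fcer1g, the signaling chain of Fc receptors, was at 735, 650 and 760 CPM against 160, 457 and 94.8 CPM. It was not called in the fit with the barcode set (edgeR adjusted p 0.0817) but was called with a replicate block.

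Lists of monocyte and macrophage markers were also lower in sum with ginkgetin. The monocyte marker list, to which Lyz2 belongs, summed to 8.46, 12.3 and 6.45 UMIs per 10000 in vehicle members and 1.60, 1.19 and 1.69 in ginkgetin members. Lyz2 itself made up most of the vehicle sums and was the only gene of the list seen in ginkgetin replicates 1 and 3. The monocyte sums are thus largely Lyz2 again and add little to it. The macrophage list was at 16.4, 1.47 and 17.1 against 0, 0.508 and 0.386. Single cells reached 174 and 363 UMIs per 10000 of the macrophage list in vehicle replicates 1 and 3, while its median over members was 1.48, 0.781 and 0.843 against 0, 0 and 0.284. The median of the monocyte list was 1.48, 2.42 and 0.758 against 1.48, 0 and 0.765, which overlapped. In all, C1q transcripts were present in 23, 8 and 23 vehicle members and 0, 1 and 3 ginkgetin members. In T cells, which should lack it, Lyz2 was at 190, 150 and 98.4 CPM with vehicle and 35, 70.8 and 13.5 CPM with ginkgetin, below the member values in 5 of the 6 libraries. In cDC1-like cells Lyz2 was at 2317, 2459 and 4072 CPM against 415, 494 and 855 CPM, and Ms4a6c and Cebpb also did not overlap between the groups in cDC1-like or cDC2-like cells. What part free RNA or cells of another lineage had in the lower values of members was not tested.

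Other genes were higher with ginkgetin. Cd274 was at 76.4, 57.7 and 75.3 CPM in vehicle members and 241 (3 UMIs in 2 members), 169 and 249 CPM in ginkgetin members, without overlap. It was not called: over all 6 libraries the log2 fold change was 1.56 ± 0.35 (SE) with an edgeR adjusted p of 0.168 (0.0851 with the barcode set), and the adjusted p was 0.148 in the planned comparison with 1 ginkgetin library. In cDC1-like cells of the same libraries it was at 10.1, 3.60 and 22.0 CPM against 5.21, 6.39 and 11.8 CPM, where the groups overlapped. Txndc17, a thioredoxin-like protein, was at 385, 378 and 418 CPM against 1123, 949 and 1075 CPM (edgeR adjusted p 0.0481 with the barcode set). Its levels overlapped between the groups in cDC1-like, cDC2-like and T cells.

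Jag1, a Notch ligand, was at 5.66, 0 and 3.28 CPM in vehicle members and 160, 67.8 and 45.7 CPM in ginkgetin members. It rested on few molecules, with 2, 0 and 2 UMIs against 2, 4 and 13, and had an edgeR adjusted p of 0.0214 in the fit with the barcode set. Zbtb46 was at 31.1, 15.7 and 29.5 CPM against 80.2, 119 and 94.8 CPM, without overlap and not called (adjusted p 0.191, and 0.0896 with the barcode set). With a replicate block over 6 libraries Zbtb46 was called. The 80.2 CPM of ginkgetin replicate 1 was 1 UMI, for Zbtb46 as for Ahnak, so neither separation is firm in that library. Ahnak, a large scaffold protein, was at 45.3, 57.7 and 62.2 CPM against 80.2, 152 and 309 CPM (adjusted p 0.113, and 0.0435 with the barcode set). Ahnak was also higher without overlap in cDC1-like cells.

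Il12b was at 286, 278 and 231 CPM in vehicle members and at 1604, 271 and 1085 CPM in ginkgetin members, so ginkgetin replicate 2 lay within the vehicle range. The 1604 CPM of ginkgetin replicate 1 was 20 UMIs in 1 of its 2 members, with 0 in the other. Il12b was not called over all 6 libraries without a block (log2 fold change 1.64 ± 0.49 (SE), edgeR adjusted p 0.247) or in the planned comparison with 1 ginkgetin library. It was called over 6 libraries with a replicate block. Ccl17 ranged from 22.9 to 631 CPM with vehicle and from 0 to 1763 CPM with ginkgetin, and Ccl5 from 2257 to 2800 CPM and from 706 to 5523 CPM, so neither separated the groups. Relb was at 540, 409 and 521 CPM against 481, 525 and 558 CPM, and Cd83 at 738, 525 and 586 CPM against 641, 559 and 1177 CPM.

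**Figure D4:**
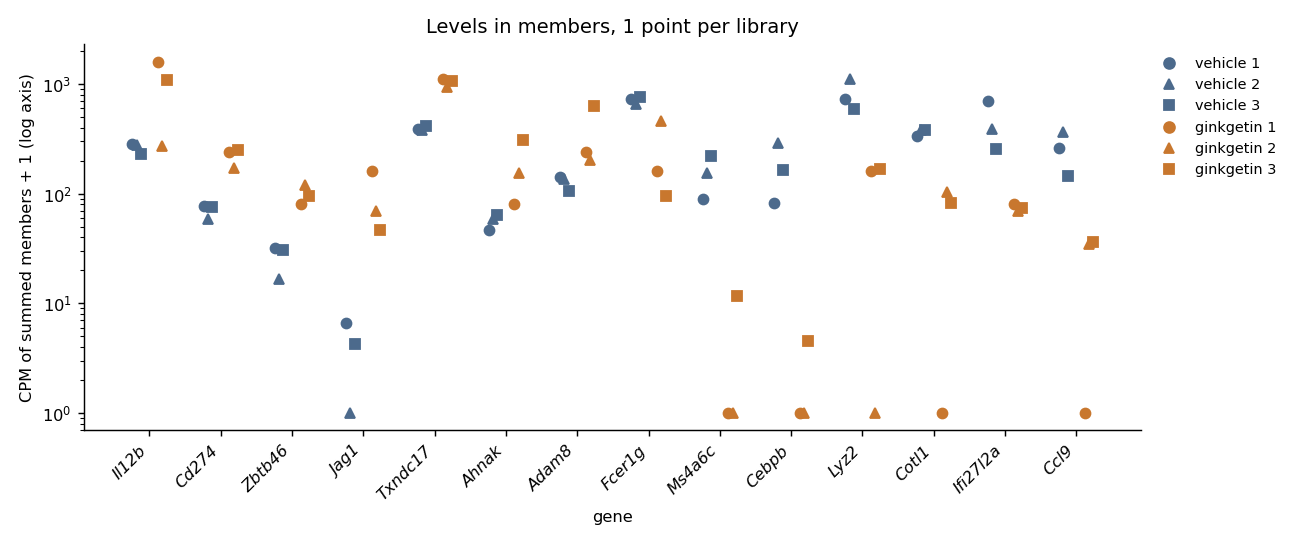
CPM plus 1 of summed members on a log axis for 14 genes, with 1 point per library coloured by group and shaped by replicate; points at 1 are libraries with 0 UMIs. Cd274, Zbtb46, Jag1 and Txndc17 lie higher in every ginkgetin library than in any vehicle library, and Ms4a6c, Cebpb, Lyz2, Cotl1, Ifi27l2a and Ccl9 lie lower, while Il12b overlaps. For Zbtb46 the value of ginkgetin replicate 1 is 1 UMI, and points at 0 UMIs there allow up to 241 CPM.

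By list, the group differences in members were as follows, all over 6 libraries with edgeR and no block, a fit with 0 calls in each list. Counts without overlap are to be read against the 8.25% of all genes that were higher and the 10.7% that were lower in this way. Of 6 costimulatory genes tested, 3 were higher and 3 lower with ginkgetin, with a median log2 fold change of 0.10 against -0.07 over all genes tested. Of 14 NF-kB genes, 9 were higher and 5 lower (median 0.14), and Traf1 and Map3k14 did not overlap. Of 11 class II genes, 5 were higher and 6 lower (median -0.22), and of 11 class I genes 6 were higher and 5 lower (median 0.11), with H2-K1, Tap1 and Nlrc5 higher without overlap. Tap1, the peptide transporter for class I, averaged 178 CPM ± 26.9 with vehicle and 347 CPM ± 67.6 with ginkgetin (SD, n = 3 each). Of 8 regulatory genes, 5 were higher and 3 lower (median 0.17), without overlap for Cd274 (higher) and Fas (lower). Of 12 movement genes, 6 were higher and 6 lower, without overlap for Adam8, Marcks and Samsn1 (higher) and Anxa3 (lower). Of 11 cytokine and chemokine genes, 6 were higher and 5 lower (median 0.09). Of 12 transcription factors, 10 were higher and 2 lower (median 0.54).

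The 6 cDC1 markers tested were all higher (median 1.09) and the 4 cDC2 markers all lower (median -0.86), with 0 of either list without overlap. Over all 2496 genes, 1150 were higher and 1346 lower. Of 9 genes of lipid-associated macrophages, 3 were higher and 6 lower (median -0.98), with Fabp5, Ctsb and Apoe lower without overlap. Apoe, the lipid carrier, was at 1598, 682 and 491 CPM with vehicle and 0, 339 and 91.3 CPM with ginkgetin, with an edgeR adjusted p of 0.0214 in the fit with the barcode set. In T cells, which should lack it, Apoe was at 593, 763 and 815 CPM against 112, 438 and 104 CPM, the same direction.

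Lymphocyte and neutrophil markers were low in members. The summed T cell, B cell, NK and neutrophil lists were under 1 UMI per 10000 in each of the 6 libraries. The endothelial list stood out at 1.89 to 3.73 UMIs per 10000 in vehicle members and 6.22 to 11.7 in ginkgetin members. In all libraries but ginkgetin replicate 2, most of it was Dnase1l3, a secreted nuclease that both endothelial and dendritic cells make. Dnase1l3 was at 337, 168 and 172 CPM against 1123, 525 and 572 CPM, without overlap. It was not called by edgeR in the planned comparison (adjusted p 0.302) or over 6 libraries without a block (adjusted p 0.242), and was called with a replicate block (adjusted p 0.0149). The same list was also higher without overlap in T cells, at 0.951, 1.32 and 1.12 UMIs per 10000 against 2.74, 9.37 and 2.48, and in cDC1-like and cDC2-like cells. The plasmacytoid list was at 15.1 in members of ginkgetin replicate 2, where 1 of 8 cells reached 60.7, and at 2.41 to 6.19 in the other 5 libraries. Cells that passed a limit for transcripts of another lineage numbered 4, 1 and 4 of the vehicle members and 0, 0 and 2 of the ginkgetin members, where the T cell part of the limit (Trac, Trbc1 and Trbc2) could act only in replicate 3. Without them the share was 0.780% against 0.177%, and edgeR called 0 of 3723 genes, with 521 at an unadjusted p under 0.05.

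**Figure D5:**
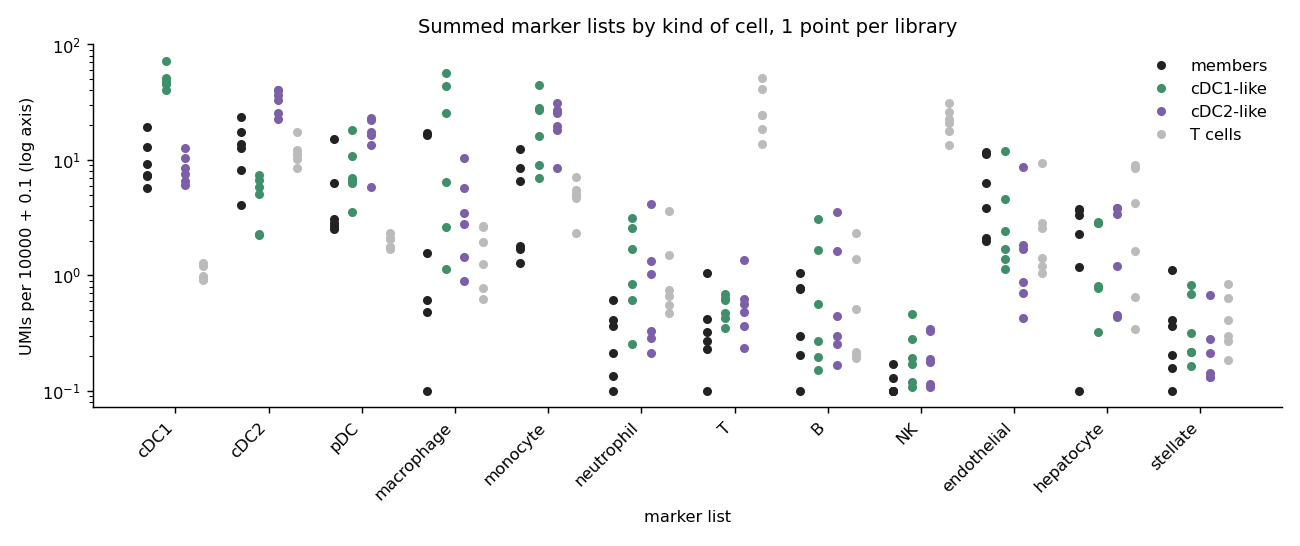
UMIs per 10000 (plus 0.1, log axis) of the summed marker lists in members, cDC1-like cells, cDC2-like cells and T cells, with 1 point per library. Members lie below cDC1-like cells for the cDC1 list and below cDC2-like cells of their library for the cDC2 list, and span 0 to 17.1 for the macrophage list.

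Promoter sequences of genes that were higher together in members were searched for 1 NF-kB-like motif, which reads GGGA, any 2 bases and TTCC, on both strands, in stretches from 250 bases before to 50 after each RefSeq start (GRCm38.p6). Of the 205 genes higher in members, 167 had a promoter in the table and 5 of them (2.99%) held the motif, as did 6 of 149 genes that were lower (4.03%), 51 of 2163 matched genes among all described in this comparison (2.36%) and 441 of all 27025 genes (1.63%). In the NF-kB list 2 of 12 matched genes held it, Nfkb2 and Nfkbia. Windows of 30 bases around the motif, which is in capitals, are shown for 3 of the 5 higher genes, since Nfkb2 belongs to the NF-kB block above, Ltb was the cDC2 marker that was higher, and Anxa4 has the motif on the strand of the gene.
Nfkb2: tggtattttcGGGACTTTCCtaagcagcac
Ltb: aagggtgttcGGAAAGTCCCcgggcagggg
Anxa4: tctccggggaGGGACTTTCCtgtgggcaaa
The Nfkb2 window lies at chr19:46305695-46305724 on the plus strand, with the motif on the strand of the gene. That of Ltb lies at chr17:35194410-35194439 on the plus strand, with the motif on the opposite strand, and that of Anxa4 at chr6:86793620-86793649 on the minus strand. A match of letters is no evidence that a factor binds.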

How the data were processed

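The deposited tables hold raw UMI counts per gene and cell, 1 table per library, made by the authors from 10x Genomics libraries (genome builds GRCm38 and mm10 per the labels). The aligner is not given in the sources used here, and the deposited barcodes include cells beyond the limits on UMIs and mitochondrial share that the authors applied later. Members and gene lists were chosen with earlier results of these data known. Cells with under 5000 genes and under 5% mitochondrial UMIs were kept, and no doublet caller was run. Counts were summed per library and cell kind. Shares were compared with two-sided exact permutation tests over libraries.

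Group differences were tested on summed counts with edgeR 4.0.16 (TMM, filterByExpr, quasi-likelihood test, Benjamini-Hochberg adjustment, adjusted p under 0.05 and a fold over 2), with DESeq2 1.42.0 and limma-voom as alternatives. The model was tested on simulated data. Libraries with 10 or more members entered the planned fit. Genes were named as a fixed set, as the 5 lowest p in each direction where none was called, as the 10 highest and 10 lowest ratios against other dendritic-like cells, or as examples of a list. Genes called only with the barcode set in the fit were named after their values were seen.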

Additional observations from a re-analysis of the deposited data

How the results depend on the processing

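The lower share of members with ginkgetin kept its direction under all 17 alternatives. The difference was -0.163 percentage points with 250 to 5000 UMIs in place of the gene limit, the limits the study states, which left 4, 3 and 3 members with vehicle, 0, 2 and 0 with ginkgetin and a 15.6-fold difference of means, and -0.726 with a looser rule, and leaving out 1 library gave -0.492 to -0.758 (3.20- to 9.77-fold, the latter without ginkgetin replicate 3; exact permutation p = 0.20 each, the smallest possible). Same-numbered libraries had correlations of 0.134, 0.094 and 0.360 in their deviations, and libraries of different numbers had -0.25 to 0.055. Whether replicate numbers mark true pairs was not tested. The share with a replicate block had an exact p of 0.25, the smallest that 3 pairs allow, with a lower share in 3 of 3 pairs.

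The count of genes called between groups depended on the fit, and the cause was not tested. Against 0 in the planned comparison, DESeq2 called 17, no filter on low genes 189, no cell filter 1 and the barcode set as a block 183. Leaving out 1 vehicle library gave 12 to 473 calls, the highest without vehicle replicate 3 and the others 12 without replicate 1 and 152 without replicate 2. Against 0 with all 6 libraries, a replicate block gave 45 calls (Il12b, Zbtb46, Fcer1g and Dnase1l3 among them), the barcode-set block 24, DESeq2 7, and leaving out 1 library 0 to 21, the highest without vehicle replicate 2. Of 854 recomputed log2 fold changes of 35 named genes, 0 reversed. Most of these genes were picked by their differences in these same libraries, so this is no independent check. Counts of genes higher or lower than in other dendritic-like cells stayed within 1.5 times. Omitting ginkgetin replicate 3, the UMI range, and a replicate block were not run in the planned group fit, as too few libraries or members remained. At 2 members, ginkgetin replicate 1 limits what low genes can show.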

Other observations

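Of 6 cell cycle genes described, Mki67, Stmn1 and Birc5 were over 2-fold lower in members than in the other dendritic-like cells in all 4 libraries, and 0 were higher. Of 13 immediate early and stress genes, 2 were lower in all 4 (Fos and Egr1) and 0 were higher, while 0 of 7 interferon-induced genes and 0 of 6 cholesterol genes passed 2-fold in all 4 in either direction. Between the groups, all 5 interferon-induced genes tested had positive log2 fold changes with ginkgetin (median 0.44) and 9 of 12 immediate early and stress genes had negative ones (median -0.48), and edgeR over all 6 libraries with no block called 0 of either list. With the barcode set as a block it called 1 of the immediate early and stress genes (Hspa1a), and with a replicate block 3 (Hspa1a, Hspa1b and Jun).

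The unannotated transcript Gm42418 was 2.82% of member UMIs in vehicle replicate 3 and 6.43% in ginkgetin replicate 3, and at most 0.0561% in the other 4 libraries, which carry the other barcode set.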
